A study of Homo sapiens with 2 samples.

Results

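Transcript levels of ATF4, its stress targets and the enzymes of serine synthesis and mitochondrial folate metabolism were examined in HSC-3 cells given the ferroptosis inducer FIN56. The 10 genes were chosen by symbol for their role, and all 10 were found among the 60616 genes listed. They comprised the stress regulators ATF4, DDIT3 and TRIB3, the asparagine synthetase gene ASNS, the serine synthesis genes PHGDH, PSAT1 and PSPH, and the mitochondrial folate genes SHMT2, MTHFD2 and ALDH1L2. HSC-3 is an established line from a human tongue squamous cell carcinoma, grown here in DMEM with fetal bovine serum. The control culture received 0.1% DMSO, and the treated culture received 1 µM FIN56 for 48 h, a time that the labels state for FIN56 alone. Each condition had 1 RNA-seq library, so the differences below have no replicate check and no p-value is given. Expected counts, which are estimates that divide a read among the genes it fits, came to totals of 70184517 (DMSO) and 73062209 (FIN56).

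ATF4 is the transcription factor of the integrated stress response, in which phosphorylation of eIF2 lowers general translation while translation of the ATF4 mRNA goes up. It binds with C/EBP family partners at composite elements of genes for amino acid synthesis, amino acid transport and tRNA charging. Serine made from a glycolytic intermediate feeds one-carbon units into mitochondrial folate metabolism, and serine is also a source of cysteine and glycine for glutathione, the thiol that GPX4 uses against lipid peroxides. ATF4 activity is set in large part by translation, which transcript levels do not measure.

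The squamous origin of the line was checked on markers. All 9 squamous epithelial markers were expressed, with KRT5 the most abundant. Their TPM, a level scaled for transcript length and to a fixed library sum, came to 8413 with DMSO and 7829 with FIN56 when added up. KRT5 and SFN, with FPKM ratios of 0.792 and 0.781, lower this sum, while 6 of the 9 markers were higher with FIN56 and their median log2 FPKM ratio was 0.11. The immune markers PTPRC and CD3E and the fibroblast marker COL1A2 had 0 counts in both libraries. The 5 fibroblast markers summed to a TPM of 7.64 with DMSO and 4.46 with FIN56, mainly from COL1A1. The 4 immune markers summed to 5.46 and 7.91, mainly from CD14. The part of these markers in the values below was not tested. In bulk RNA, fewer cells with a transcript and less of it per cell cannot be told apart.

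ASNS makes asparagine from aspartate and glutamine and is a long-known target of ATF4. It had the lowest FPKM ratio of the 10 genes, and its promoter is printed because it alone among them held the letters searched for. Promoter windows of 300 bases, from 250 bases before to 50 bases after the transcription start, were found in RefSeq (GRCh38.p14) for 7 of the 10 genes, with no entry used for PSPH, SHMT2 and ALDH1L2. They were searched on both strands for TGATGCAA, the core of the C/EBP-ATF composite element, and for TGATGNAA, which includes it. Of the 2 ASNS windows, the one with a match lies on the minus strand at chr7:97872359-97872658, and the capitals mark the match, which begins 68 bases before the start site of this window, position 97872408. That is also the start of the canonical transcript in GENCODE release 44, and 2 of the 17 ASNS transcripts there start further upstream and have the match in an exon.
ASNS promoter: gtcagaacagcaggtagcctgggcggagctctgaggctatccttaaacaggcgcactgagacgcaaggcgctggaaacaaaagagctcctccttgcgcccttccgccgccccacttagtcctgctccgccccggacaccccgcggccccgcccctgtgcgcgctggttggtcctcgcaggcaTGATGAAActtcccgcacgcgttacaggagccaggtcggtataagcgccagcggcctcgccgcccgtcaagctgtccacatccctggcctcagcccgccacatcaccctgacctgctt

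Neither motif was found in the windows of ATF4, DDIT3, TRIB3, PHGDH, PSAT1 and MTHFD2, which says only that these letters are absent from these windows. Of 27305 genes with a window, 295 (1.08%) held TGATGCAA and 1217 (4.46%) held TGATGNAA. The counts were 0 and 1 for the 7 genes. Among cytosolic tRNA synthetases usually counted as ATF4 targets, 6 of 10 with a window held TGATGCAA and 7 held TGATGNAA, the highest share of the lists read here. The counts were 4 and 5 of 18 for other ATF4 targets, 2 and 4 of 8 for amino acid transporters, and 1 and 1 of 12 for genes that act before ATF4. They were 1 and 1 of 7 for other mitochondrial folate genes and 1 and 1 of 8 for ER chaperone genes. Neither motif was held by any of 6 other synthetases or 9 cytosolic folate genes. To set the ASNS match beside others, windows of 30 bases are given for the genes holding the motif that had the lowest or highest FPKM ratio of their list, read on the strand that carries the motif, with the motif in capitals.
ASNS, chr7:97872458-97872487, minus strand: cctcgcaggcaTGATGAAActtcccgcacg
SLC1A4, chr2:64989381-64989410, minus strand: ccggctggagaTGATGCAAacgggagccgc
SLC1A5, chr19:46784893-46784922, minus strand: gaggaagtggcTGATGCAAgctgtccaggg
AARS1, chr16:70289675-70289704, plus strand: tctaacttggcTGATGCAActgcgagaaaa
GARS1, chr7:30594834-30594863, minus strand: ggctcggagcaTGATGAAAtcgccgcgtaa
MTHFD1L, chr6:150866346-150866375, plus strand: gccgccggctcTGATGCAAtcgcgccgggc

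The FPKM ratios of these genes, FIN56 over DMSO, were 0.415 for ASNS, 0.490 for SLC1A4, 0.707 for MTHFD1L, 0.899 for AARS1, 1.21 for GARS1 and 1.29 for SLC1A5. These genes were picked by their ratios, so nothing is read from how far apart the ratios lie. Among genes with a window that had an FPKM of 1 or more on both sides, the 63 with TGATGCAA had a median log2 ratio of 0.07. The 9243 without it, which include ASNS and GARS1, had 0.03. For TGATGNAA, which both of these hold as TGATGAAA, the medians were 0.07 for 244 genes with it and 0.03 for 9062 without.

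FPKM is a level scaled for library size and for an effective gene length that is estimated in each library. A ratio of 1.5 or more, or of 1/1.5 or less, was taken as the threshold, among genes above 0 in both libraries. None of the 10 genes reached 1.5, a threshold passed by 14.7% of the 24454 such genes. ASNS and ALDH1L2 lay at 1/1.5 or less. So did 17.3% of all genes above 0, a share near the 2 of 10. Many of those other genes are weakly expressed. All 10 genes reached an FPKM of 1 in each library, and of the 12638 genes that did, 3.87% were at 1.5 or more and 6.77% at 1/1.5 or less. The 2 of 10 lies above that 6.77%, a difference that was not tested. In all, 3 of the 10 genes were higher with FIN56 and 7 lower, with a median log2 FPKM ratio of -0.29, against 0 for all genes above 0 and 0.03 for those with an FPKM of at least 1. With rlog values the median of the 10 genes was -0.10.

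**Figure D1:**
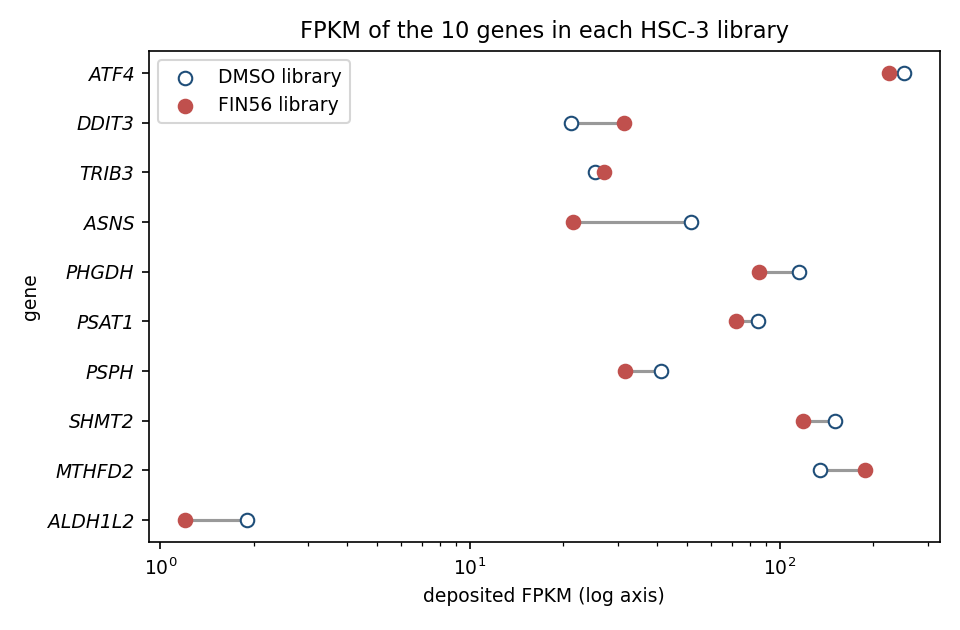
Deposited FPKM of the 10 genes, on a log axis, in the DMSO library (open circles) and the FIN56 library (filled circles), 1 library each. ASNS has the widest gap, from 51.7 to 21.4, and DDIT3, TRIB3 and MTHFD2 are the genes with the higher value in the FIN56 library.

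Among the stress regulators, ATF4 itself had an FPKM of 251 with DMSO and 225 with FIN56. It was the most abundant of the 10 genes in both libraries, and 2.82% of the genes with an FPKM of at least 1 had a higher TPM in the DMSO library. Its FPKM ratio was 0.895. The ratio of its expected counts, scaled by the library totals, was 0.889, with an exact Clopper-Pearson 95% interval of 0.872 to 0.907. Such an interval holds counting error alone and speaks of these 2 libraries rather than of the conditions. The 4 ATF4 pseudogenes together had 146 and 134 expected counts, 0.725% and 0.717% of those of ATF4. The ATF4 counts were not whole numbers, so some reads were divided with other genes.

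DDIT3, which encodes the stress factor CHOP, had an FPKM of 21.2 with DMSO and 31.4 with FIN56. This was the highest ratio of the 10 genes, 1.48, just under the threshold. Its count ratio of 1.486 had an interval of 1.38 to 1.60, which spans 1.5, so counting error alone leaves its side of the threshold undecided. The ratio was 1.52 both by TPM and by counts with median-of-ratios factors, which puts DDIT3 past 1.5. DDIT3 (chr12:57516588-57521737, minus strand, GRCh38, GENCODE release 44) overlaps MARS1 and MBD6 on the opposite strand, by 982 and 1028 bases. MARS1 had an FPKM of 113 with DMSO and 136 with FIN56. The strand setting of the counting is not given in the sources used here, so reads from the overlaps cannot be told apart with certainty.

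TRIB3, a pseudokinase that is induced by ATF4 and CHOP and restrains them, had an FPKM of 25.3 with DMSO and 27.0 with FIN56. Its FPKM ratio was 1.07, and its count ratio of 1.08 had an interval of 1.03 to 1.13. The TPM of DDIT3 was 0.838 times that of TRIB3 with DMSO and 1.16 times with FIN56, so their order changed between the libraries. The 3 stress regulators thus had ratios on both sides of 1.

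ASNS had an FPKM of 51.7 with DMSO and 21.4 with FIN56. Behind these values were 5678 and 2466 expected counts, a count ratio of 0.417 with an interval of 0.398 to 0.437. It is the one gene of the 10 whose whole interval lay below 1/1.5. Of the 12638 genes with an FPKM of at least 1, 59 (0.467%) had a ratio as low or lower, ASNS included. By rlog, a log2 value shrunken between libraries, its ratio was 0.707 and no longer past 1/1.5. The gene has 13 exons in its canonical transcript of 2385 bases and, with all its transcripts, lies at chr7:97851677-97872542 on the minus strand. The TPM of ASNS was 0.206 times that of ATF4 with DMSO and 0.0952 times with FIN56. A long non-coding RNA gene on the same strand overlaps ASNS over 20855 bases and had 56.2 and 61.9 expected counts. The 4 ASNS pseudogenes together had 0 and 2 counts.

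The 3 serine synthesis genes were all lower in the FIN56 library. PHGDH, which oxidises 3-phosphoglycerate and opens the pathway, had an FPKM of 115 with DMSO and 85.6 with FIN56. PSAT1, the transaminase of the next step, had 85.0 and 72.0. PSPH, the phosphatase that releases serine, had 41.2 and 31.6. The order of their levels was the same in both libraries, with PHGDH the highest and PSPH the lowest. The FPKM ratios were 0.741 for PHGDH, 0.847 for PSAT1 and 0.766 for PSPH, all between 1/1.5 and 1. Ratios as low or lower were held by 11.6%, 22.8% and 13.8% of the 12638 genes with an FPKM of at least 1. Their count ratios had intervals of 0.705 to 0.743 for PHGDH, 0.817 to 0.860 for PSAT1 and 0.749 to 0.821 for PSPH. The TPM of PHGDH was 2.80 times that of PSPH with DMSO and 2.71 times with FIN56. The summed TPM of the pathway was 361 with DMSO and 289 with FIN56. PHGDH and PSAT1 had whole expected counts, whereas PSPH did not, and its pseudogene PSPHP1 had 7.02 and 10.1.

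The mitochondrial folate genes did not share a direction. SHMT2, which splits serine into glycine and a one-carbon unit in mitochondria, had an FPKM of 150.3 with DMSO and 119 with FIN56. MTHFD2, the next enzyme of that route, had 135 and 188. ALDH1L2, which oxidises 10-formyltetrahydrofolate to carbon dioxide, had 1.91 and 1.20 and was the least abundant of the 10 genes. MTHFD2 had the second highest FPKM ratio of the 10 genes, 1.39, and SHMT2 had a ratio of 0.790. SHMT2 was the more abundant in the DMSO library and MTHFD2 in the FIN56 library, with TPM ratios of MTHFD2 over SHMT2 of 0.8999 and 1.58. MTHFD2 lies at chr2:74186172-74217565 and SHMT2 at chr12:57229573-57234935, both on the plus strand.

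The FPKM and count ratios parted for MTHFD2 and ALDH1L2. ALDH1L2 had 754 and 618 expected counts, a count ratio of 0.788 with an interval of 0.707 to 0.877, beside its FPKM ratio of 0.628. The effective length that its counts and FPKM imply was 5624 bases with DMSO and 7054 with FIN56, a ratio of 1.254. Its place at 1/1.5 or less therefore rests on the length estimate. By counts scaled with library totals or TMM, ASNS was the one gene of the 10 past a threshold. MTHFD2 had a count ratio of 1.29, with an interval of 1.263 to 1.317 that does not hold its FPKM ratio, and an effective length ratio of 0.929. For the other 8 genes the effective length ratio lay between 0.976 for PHGDH and 1.02 for PSPH. Among all genes with an FPKM of at least 1, the central 95% of these ratios ran from 0.823 to 1.14, so ALDH1L2 lay outside that range. ALDH1L2 overlaps NOPCHAP1 and WASHC4 on the opposite strand, and its counts were not whole numbers.

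**Figure D2:**
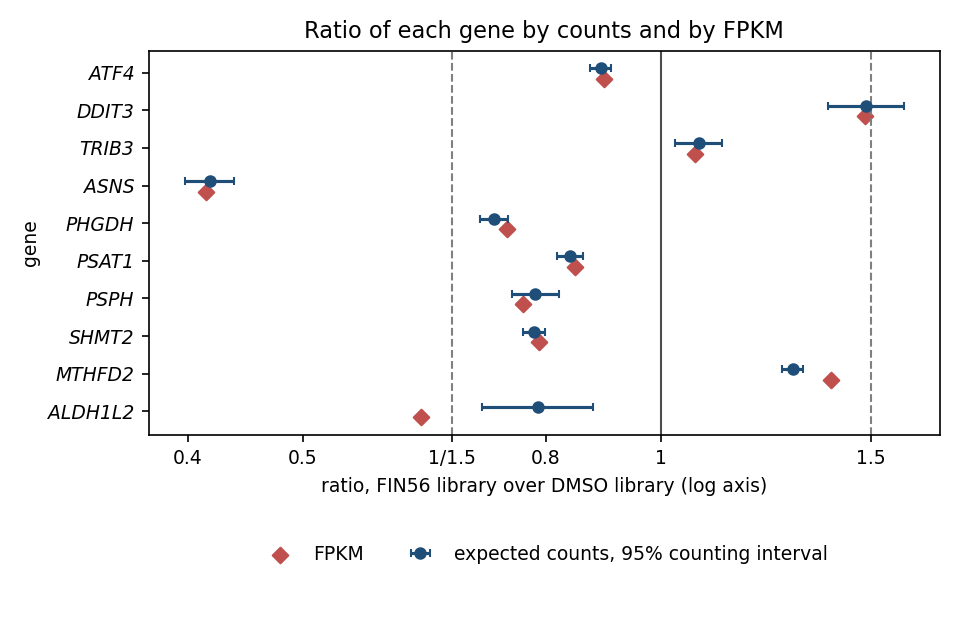
Ratio of the FIN56 over the DMSO library on a log axis for each of the 10 genes, from expected counts scaled by library totals (circles, bars are exact 95% counting intervals) and from FPKM (diamonds). The dashed lines mark 1/1.5 and 1.5. ASNS lies below the lower line by both measures, and ALDH1L2 by FPKM alone.

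By count ratio, 0 of the 10 genes reached 1.5 and 1 lay at 1/1.5 or less, against 3.25% and 7.11% of the genes with an FPKM of at least 1. The counting interval lay above 1 for 3 of the 10 genes and below 1 for 7. Among the 12638 genes it lay above 1 for 38.0% and below 1 for 35.9%. At this depth an interval without 1 was thus common, and it says nothing of the spread between cultures.

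**Figure D3:**
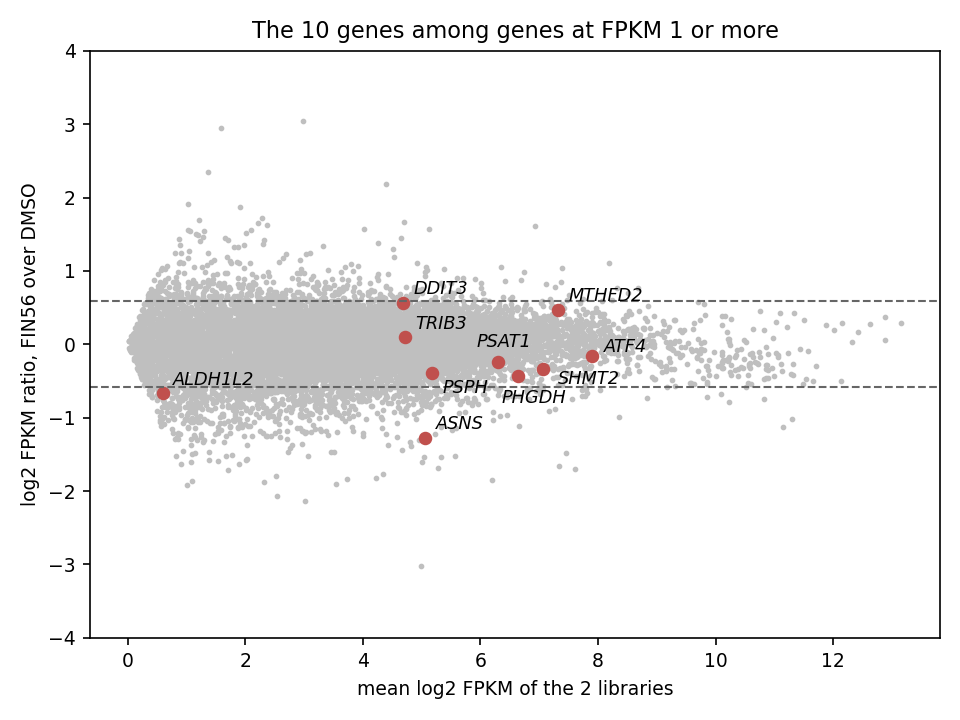
Log2 FPKM ratio against mean log2 FPKM for the 12638 genes that reach an FPKM of 1 in each library (grey), with the 10 genes in red and the thresholds of 1.5 and 1/1.5 dashed. ASNS lies at the lower edge of the genes of its level, and ALDH1L2 lies just past the lower dashed line. DDIT3 lies just inside the upper dashed line, and the other 7 also lie between the lines.

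Other genes of the pathway were read from lists of known function. Of the 23 other ATF4 targets, 21 were above 0 in both libraries, with 7 higher, 14 lower and a median log2 FPKM ratio of -0.06 that turned to 0.0039 with rlog values and 0.0087 with median-of-ratios scaling. DDIT4, an inhibitor of mTORC1 signalling, had the lowest ratio at 0.359, from an FPKM of 294 with DMSO to 106 with FIN56. STC2, a secreted glycoprotein, had the highest at 1.61, with a count ratio of 1.37. In this list 2 genes were at 1.5 or more and 5 at 1/1.5 or less, against 14.7% and 17.3% of all genes above 0. Among its 19 genes that reached an FPKM of 1 in each library the counts were 1 and 4, against 3.87% and 6.77%.

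Of 9 amino acid transporters under ATF4, 7 were higher and 2 lower, with a median of 0.16, or 0.074 with rlog values. In this list 0 were at 1.5 or more and 2 at 1/1.5 or less, against 14.7% and 17.3% of all genes above 0. For the 7 transporters that reached an FPKM of 1 in each library the counts were 0 and 1, against 3.87% and 6.77%. SLC1A4, which carries serine, alanine and cysteine, had an FPKM of 2 with DMSO and 0.980 with FIN56, and SLC1A5, a glutamine carrier, had 65.8 and 84.8. The 12 tRNA synthetases usually counted as ATF4 targets had a median of 0.11 and ratios from 0.899 (AARS1) to 1.21 (GARS1). That median was 0.019 once centred by GC content and length, and 0.061 with rlog values. The other 8 cytosolic synthetases had a median of 0.13, or 0.068 with rlog values, and ratios from 0.749 (QARS1) to 1.298 (FARSB). By FPKM ratio, all 7 of the 10 genes that were lower with FIN56 lay below each of the 12 synthetases counted as ATF4 targets. ATF4 did so by little, at 0.895 beside 0.899 for AARS1. Some of the other synthetases, QARS1 among them, also lay below all 12, so this was not particular to the 10 genes.

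Genes that act before ATF4 were also read. The 13 kinases, eIF2 and eIF2B subunits and related genes had a median of 0.06, which turned to -0.018 once ratios were centred by GC content and length. EIF2B2 was lowest at 0.578 and EIF2S1, the subunit that is phosphorylated, highest at 1.33. The 8 ER chaperone and degradation genes had a median of 0.10, or 0.053 with rlog values, and ratios from 0.892 for HSPA5 to 1.29 for DNAJB9.

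The folate genes next to SHMT2, MTHFD2 and ALDH1L2 were compared by compartment. SHMT1, the cytosolic form of SHMT2, had a ratio of 0.819 beside 0.790 for SHMT2. MTHFD2L, the close relative of MTHFD2, had a ratio of 1.297 beside 1.39. The TPM of SHMT2 was 3.61 times that of SHMT1 with DMSO and 3.48 times with FIN56. The TPM of MTHFD2 was 6.49 and 6.94 times that of MTHFD2L. By counts the ratios were 0.781 for SHMT2 and 0.783 for SHMT1, and 1.29 for MTHFD2 and 1.34 for MTHFD2L. The small shifts in TPM within the pairs were thus not seen in counts. Within each pair, the ratios of both genes lay on the same side of 1. MTHFD1L, which acts after MTHFD2 in mitochondria, had an FPKM of 28.4 with DMSO and 20.1 with FIN56. The TPM of MTHFD2 was 4.77 and 9.36 times that of MTHFD1L. Part of that change rests on the length estimates, with effective length ratios of 0.929 for MTHFD2 and 1.09 for MTHFD1L. The FPKM ratio of MTHFD1L was 0.707 and its count ratio 0.768. MTHFD1, the cytosolic enzyme for the same steps, had a ratio of 0.901.

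The 9 other mitochondrial folate and glycine cleavage genes had a median of 0.01 that turned to -0.13 by counts scaled with TMM or by library totals, and was also below 0 with 3 other alternatives. The 12 cytosolic folate and methionine cycle genes had a median of -0.09. It was -0.22, -0.21 and -0.18 by counts scaled with TMM, library totals and median-of-ratios factors, and -0.036 among those that reached an FPKM of 1 in each library or 10 counts in each. AHCY, which clears S-adenosylhomocysteine, was lowest among those with at least 100 counts at 0.491, from an FPKM of 106 to 52.2. TYMS, which uses a one-carbon unit to make thymidylate, had a ratio of 0.660. Over all these lists together, 2 of 92 genes were at 1.5 or more and 11 at 1/1.5 or less, against 14.7% and 17.3% of all genes. Of the 85 that reached an FPKM of 1 in each library, 1 and 8 were, against 3.87% and 6.77%.

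**Figure D4:**
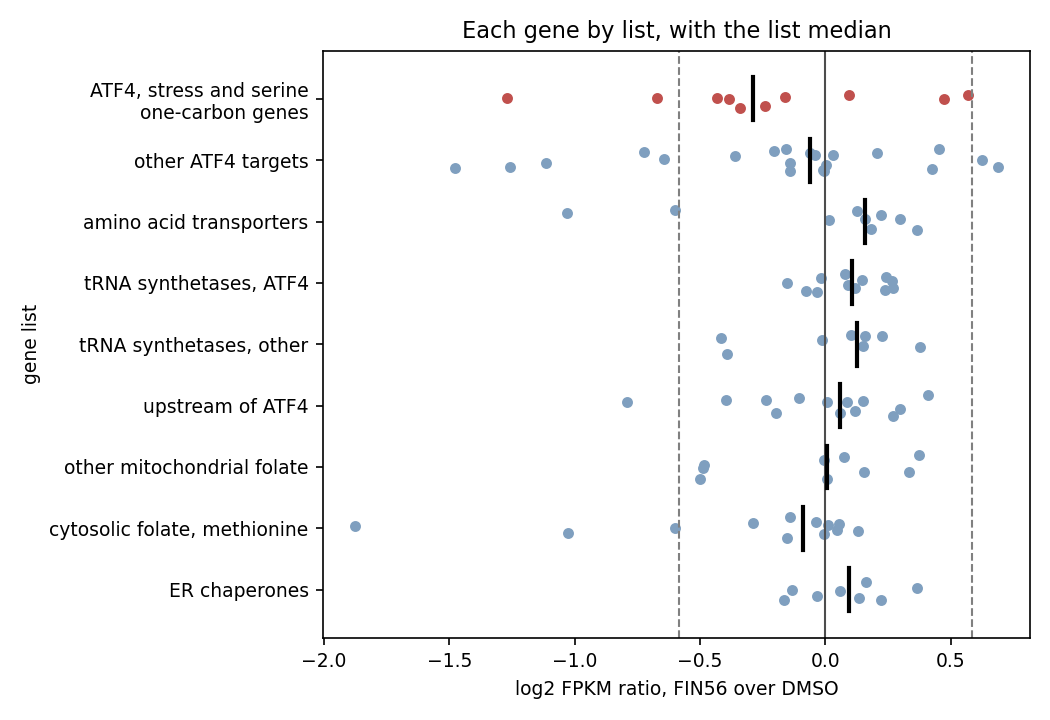
Log2 FPKM ratio, FIN56 over DMSO, of each gene above 0 in both libraries, by list, with the median of each list as a black bar. The solid line is the median of all genes and the dashed lines mark ratios of 1/1.5 and 1.5. The 10 genes in red have a median of -0.29, and the medians of the other lists run from -0.09 to 0.16.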

How the data were processed

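Both libraries were made with a TruSeq Stranded mRNA kit. The submitters' processing notes name FastQC 0.11.7, STAR 2.6.1a, RSEM 1.3.1 and DESeq2 1.26.0 with GRCh38. The deposited expected counts are RSEM estimates without normalization. The deposited FPKM and TPM values are scaled for effective length and library size by RSEM. The deposited rlog values came from DESeq2 and are log2 values. All 8 per-sample columns were matched by name.

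Computed here were FPKM ratios, compared with 1.5 in whole hundredths, count ratios with exact intervals from rounded expected counts (scipy 1.17.1), and effective lengths from counts and FPKM. Alternatives used TMM (edgeR 4.0.16), median-of-ratios size factors (DESeq2 1.42.0), library totals, TPM, rlog, filters, pseudocounts, a threshold of 2, and centring in 10 bins of GC content and 10 of length. Positions and lengths came from GENCODE release 44, which held 99.7% of the identifiers. The steps were tested on simulated data. Named were the 10 genes, their pseudogenes, pathway neighbours, and the lowest and highest ratio of each list among genes with at least 100 counts; genes that overlap a named gene were added. The values of some single genes are left out. The genes and lists were chosen with earlier results of these data known.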

Additional observations from a re-analysis of the deposited data

How the results depend on the processing

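No paired analysis was possible because there was only 1 library in each condition. The 2 filters leave a gene's own ratio as it is, and the 2 pseudocounts cannot turn its direction. Under the other 6 alternatives, which share the same reads, each of the 10 genes kept its direction, and 36 of 60 gene ratios moved by less than the counting interval. Of 48 medians of other lists under these 6, 36 moved by no more than 1/2 of the median interval width of their genes, and 12 by more. The cause of the other shifts was not tested, except that rlog values draw the libraries together by construction.

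With rlog values, 0 genes were at 1/1.5 or less. The ratios became 0.961 for ATF4, 1.17 for DDIT3, 0.707 for ASNS, 0.880 for PHGDH, 0.937 for PSAT1, 0.914 for PSPH, 0.909 for SHMT2, 1.13 for MTHFD2 and 0.934 for ALDH1L2. The median of the 10 genes became -0.10, that of transporters 0.074, and those of the ATF4 and other synthetases 0.061 and 0.068. With TMM, library totals and median-of-ratios factors, 1 gene was at 1/1.5 or less each. ALDH1L2 became 0.787, 0.788 and 0.808, and MTHFD2 1.29, 1.29 and 1.32. The median of cytosolic folate genes became -0.22, -0.21 and -0.18, and that of other mitochondrial folate genes -0.13, -0.13 and -0.089. With median-of-ratios factors 1 gene, DDIT3, reached 1.5, PSPH became 0.804 and the ATF4 synthetase median 0.14.

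With TPM 1 gene, again DDIT3, reached 1.5, and ATF4 became 0.915, SHMT2 0.808 and MTHFD2 1.42. Centred by GC content and length, ATF4 became 0.932, ASNS 0.390, PHGDH 0.794, PSAT1 0.811 and MTHFD2 1.28. The median of genes upstream of ATF4 became -0.018 and that of the ATF4 synthetases 0.019. A pseudocount of 1 FPKM gave 0.756 for ALDH1L2 and left 1 gene at 1/1.5 or less, as did a threshold of 2 and 1/2.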
